A study of Homo sapiens with 4 samples.

Results

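YAP1 and TAZ are the transcriptional coactivators at the end of the Hippo pathway, and 9 genes of this axis were examined in MCF12A cells with and without the p2 promoter of *C1orf132*. The genes were taken by symbol from the deposited expression table. They comprise 4 factors, *YAP1*, *WWTR1* (which encodes TAZ), *TEAD1* and *TEAD4*, and 5 target genes, *CTGF* (now *CCN2*), *CYR61* (now *CCN1*), *ANKRD1*, *AMOTL2* and *AJUBA*. Of these 9 genes, 8 were among the 16811 genes analysed, all 4 factors and 4 targets. *ANKRD1* was not analysed here. MCF12A is a line of human breast epithelium that does not form tumours. Poly(A)-selected RNA of 2 biological replicates of wild-type cells and 2 of *C1orf132* KO cells, called edited cells here, was sequenced with single-end reads. In the edited cells, CRISPR/Cas9 had been used to remove the p2 promoter of *C1orf132*, the host gene of miR-29b2 and miR-29c, and were grown from sorted single cells. The sources used here do not state which colony was sequenced or whether both replicates came from one colony. The same growth medium, with horse serum, EGF, hydrocortisone, cholera toxin and insulin, is given for both groups. The RNA of *C1orf132* was not analysed here, and the label alone assigns a library to its group.

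In the Hippo pathway, a kinase cascade of MST and LATS kinases phosphorylates YAP1 and TAZ and keeps them in the cytoplasm. When the cascade is inactive, as in spread cells or cells at low density, both proteins enter the nucleus and act through the TEAD proteins, which bind DNA. The activity of YAP1 and TAZ is therefore set largely by where the proteins are, and the RNA of their target genes, with *CTGF* and *CYR61* the most used, serves as its readout. These libraries measure RNA only, so neither the localization nor the phosphorylation of YAP1 or TAZ was measured. In such bulk samples, fewer cells of a type and less RNA per cell cannot be told apart.

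The TEAD proteins recognise a short core, GGAATG, and the promoters below are shown because they show how differently the target genes carry it near their start. Each is 300 bases of RefSeq sequence on GRCh38.p14, from 250 bases before to 50 after an annotated start, read along the transcribed strand, with matches to the core on either strand (GGAATG or CATTCC) in capitals. *CTGF* has 1 promoter in the RefSeq table, at chr6:131951323-131951622 on the minus strand. *AMOTL2* and *AJUBA* have 2 promoters each, and the one with a match is shown, at chr3:134374398-134374697 and chr14:22976793-22977092, both on the minus strand. *YAP1* is shown as a factor, at chr11:102110197-102110496 on the plus strand.

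CTGF: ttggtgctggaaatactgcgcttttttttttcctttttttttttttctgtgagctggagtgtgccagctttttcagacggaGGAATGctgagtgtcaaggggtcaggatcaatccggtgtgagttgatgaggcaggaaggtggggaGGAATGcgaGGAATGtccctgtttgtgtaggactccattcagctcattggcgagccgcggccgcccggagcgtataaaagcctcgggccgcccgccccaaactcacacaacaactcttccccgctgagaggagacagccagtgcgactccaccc

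AMOTL2: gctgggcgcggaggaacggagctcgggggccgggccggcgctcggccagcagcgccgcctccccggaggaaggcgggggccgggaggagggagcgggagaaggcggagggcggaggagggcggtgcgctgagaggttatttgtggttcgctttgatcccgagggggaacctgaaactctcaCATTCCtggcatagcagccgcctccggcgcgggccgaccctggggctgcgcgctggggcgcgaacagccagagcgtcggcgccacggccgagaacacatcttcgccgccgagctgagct

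AJUBA: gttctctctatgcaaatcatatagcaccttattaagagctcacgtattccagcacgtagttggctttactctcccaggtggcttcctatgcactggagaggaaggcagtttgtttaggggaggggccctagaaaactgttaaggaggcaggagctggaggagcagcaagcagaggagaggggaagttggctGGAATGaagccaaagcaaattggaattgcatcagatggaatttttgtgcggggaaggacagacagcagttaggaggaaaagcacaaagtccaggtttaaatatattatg

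YAP1: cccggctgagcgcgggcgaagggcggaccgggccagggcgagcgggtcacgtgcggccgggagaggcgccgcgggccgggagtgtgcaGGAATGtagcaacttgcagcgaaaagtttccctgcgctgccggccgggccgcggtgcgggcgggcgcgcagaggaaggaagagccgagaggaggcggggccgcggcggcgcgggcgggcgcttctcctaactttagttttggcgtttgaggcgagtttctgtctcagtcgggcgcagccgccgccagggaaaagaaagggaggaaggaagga

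The *CTGF* promoter holds 3 matches, whose first bases lie 169, 104 and 95 bases before the start. The promoters of *AMOTL2*, *AJUBA* and *YAP1* shown here hold 1 match each, 69, 59 and 162 bases before the start, on the other strand in *AMOTL2*. Among all 35116 such promoters, 14.0% hold at least 1 match and 0.128% hold 3 or more. The other promoters of *AMOTL2* and *AJUBA* and both promoters of *WWTR1* hold 0 matches. The core of AP-1, TGANTCA, which reads the same on both strands, is in 7.71% of promoters and in 0 of the 4 shown. Promoters of *CYR61*, *TEAD1* and *TEAD4* were not used here. A match is a run of letters and not a measured binding site, and a window without one says nothing about sites elsewhere.

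All values below are the authors' normalized expression values, which are scaled for transcript length and between libraries. The groups were compared by limma on log2(value + 1) over the 9590 genes whose mean value reached 10, and a gene was called at a Benjamini-Hochberg adjusted p under 0.05. A fold change on this scale understates the change of low genes. At this threshold 680 genes were called, 7.09% of those tested, with 277 higher (2.89%) and 403 lower (4.20%) in edited cells. Over all tested genes, the median log2 fold change was 0.09. With 2 libraries a group, an exact two-sided permutation test of a single gene cannot give a p below 0.333, so the calls rest on the variance that limma shares between genes. They measure the spread between these replicates, which may or may not come from separate colonies.

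Of the 8 genes, 2 were called, both target genes and both higher in edited cells. *CTGF* was 14.9 times and *CYR61* 5.58 times as high in edited as in wild-type cells by the ratio of means. Of the 4 factors, limma called 0, and 1 of them (*TEAD1*) had an unadjusted p under 0.05, as had 3095 of the 9590 tested genes. The values of *YAP1* and *WWTR1* overlapped between the groups. The other 2 targets were not called, with log2 fold changes of 0.91 for *AMOTL2* and -0.48 for *AJUBA*.

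**Figure D1:**
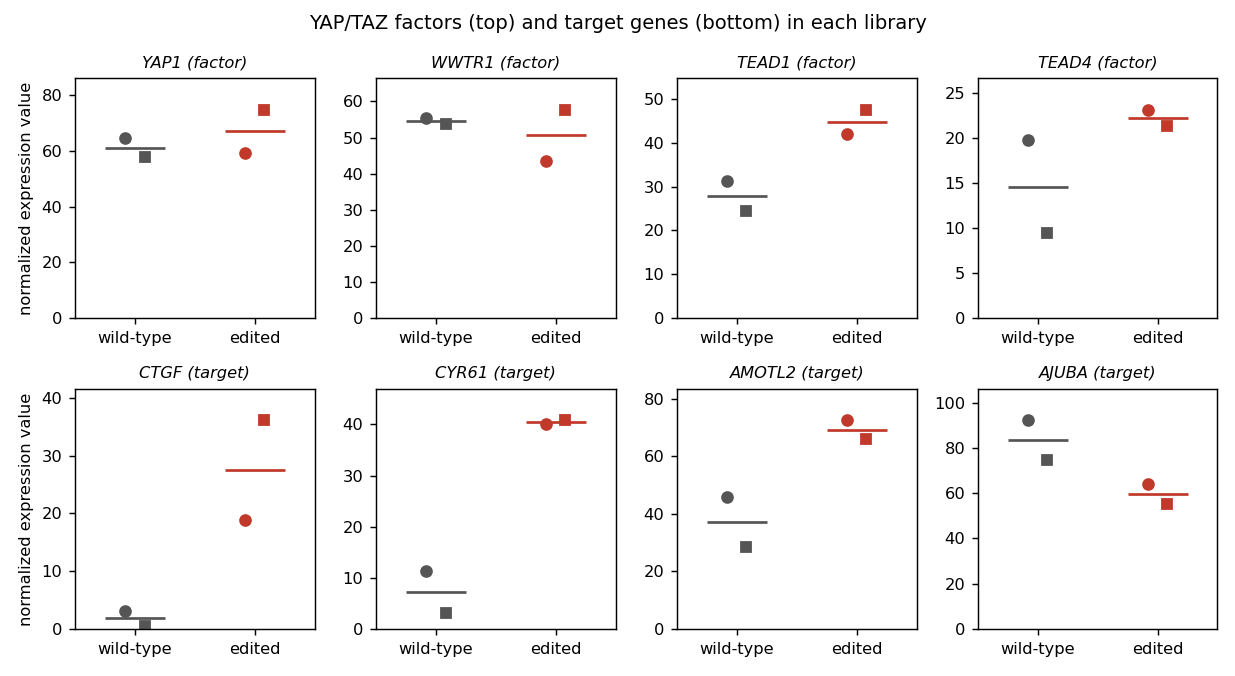
Normalized expression value of each gene in each library (linear axis from 0, a separate scale per gene). Circles are replicate 1, squares replicate 2 and lines group means of n = 2. *CTGF* and *CYR61* lay at 18.9 to 40.8 in edited and at 0.516 to 11.3 in wild-type cells, while the groups overlapped for *YAP1* and *WWTR1*.

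Among the factors, *YAP1* encodes the coactivator YAP1 and lies on chromosome 11 (102110447 to 102233424 on GRCh38). Edited replicates 1 and 2 had values of 59.1 and 74.7, against 64.6 and 57.7 in wild-type replicates 1 and 2. The edited libraries held both the highest value and the second lowest. The log2 fold change was 0.12 (standard error 0.20, 95% interval -0.38 to 0.62, adjusted p = 0.710 from limma), and under the alternative settings it ranged from -0.05 to 0.29.

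*WWTR1* encodes TAZ, the paralog of YAP1, and lies on chromosome 3 (149517235 to 149724788). The edited libraries had values of 43.6 and 57.7, against 55.5 and 53.7 in wild-type cells. The wild-type values lay between the edited ones. Its log2 fold change was -0.12 (standard error 0.20, 95% interval -0.62 to 0.38, adjusted p = 0.710 from limma). For both coactivators the interval takes in the median of all genes and leaves out a change of 1 on the log2 scale in either direction.

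*TEAD1* and *TEAD4* encode DNA-binding partners of YAP1 and TAZ. *TEAD1*, on chromosome 11 (12674421 to 12944737), had values of 42.0 and 47.5 in edited and 31.3 and 24.5 in wild-type cells. Both edited values were above both wild-type values, by a ratio of means of 1.60. The log2 fold change of 0.67 (standard error 0.20, 95% interval 0.18 to 1.16) did not pass the threshold (adjusted p = 0.0874 from limma) and was not called under any of 13 alternatives.

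*TEAD4*, on chromosome 12 (2959397 to 3040676), had values of 23.1 and 21.3 in edited and 19.7 and 9.41 in wild-type cells. Wild-type replicate 2 was low, and the remaining libraries lay close together. The difference on the log2 scale was 0.66 (standard error 0.35, with an adjusted p = 0.243 from limma), 0.16 when wild-type replicate 2 was left out and 1.16 without replicate 1, so its size rests on that library. The other TEAD genes and their VGLL cofactors gave 0 calls among 3 tested genes, with 0 at an unadjusted p under 0.05 (limma). The largest differences were those of *VGLL4*, which encodes a competitor of YAP1 for TEAD binding, at -0.47 (adjusted p = 0.252), and *TEAD2*, at 0.25 (adjusted p = 0.621).

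Among the targets, *CTGF* encodes connective tissue growth factor, a secreted matricellular protein of the CCN family, and lies on chromosome 6 (131948176 to 131951372). Edited replicates 1 and 2 had values of 18.9 and 36.1, against 3.18 and 0.516 in wild-type replicates 1 and 2. The groups lay far apart, the lowest edited value being 5.96 times the highest wild-type value, but the wild-type replicates also differed by 6.16-fold. On the log2 scale the fold change was 3.43 (standard error 0.58, 95% interval 1.99 to 4.88, adjusted p = 0.0355 from limma), at percentile 99.9 of all tested genes. About 423 and 902 reads were estimated in edited cells and only 66 and 12 in wild-type cells. The ratio of the edited mean to a single wild-type library was 8.66 for replicate 1 and 53.3 for replicate 2.

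*CYR61*, the closest relative of *CTGF* among the genes examined and also a secreted matricellular CCN protein, lies on chromosome 1 (85580761 to 85583950). Its value was 40.0 and 40.8 in edited and 11.3 and 3.14 in wild-type cells. The edited replicates were nearly equal and both wild-type replicates were below them. On the log2 scale the fold change was 2.53 (standard error 0.50, 95% interval 1.28 to 3.79, adjusted p = 0.0465 from limma), at percentile 99.8. The ratio of the edited mean to a single wild-type library was 3.57 for replicate 1 and 12.9 for replicate 2.

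Both calls depended on the settings. The alternatives include a crossed pairing of replicates that was chosen after the data were seen. That pairing called both genes and gave each its lowest adjusted p. *CTGF* was called under 9 of 13 alternative settings (adjusted p from 0.00538 to 0.131) and *CYR61* under 6 of 13 (0.0140 to 0.0972), with the log2 fold change between 2.22 and 4.21 and between 1.75 and 3.32. Without wild-type replicate 2 the log2 fold change was 2.70 for *CTGF* (adjusted p = 0.131 from limma) and 1.75 for *CYR61* (adjusted p = 0.0972). Without wild-type replicate 1 the call of *CTGF* was also lost (4.17, adjusted p = 0.0586). Without edited replicate 1 that of *CYR61* was lost (2.55, adjusted p = 0.0542). With the replicate number as a block, neither was called (adjusted p = 0.0783 and 0.0733). The wild-type means of 1.85 and 7.24 are under the filter of 10, so both genes were tested only because they were high in edited cells. Without that filter *CTGF* was called (adjusted p = 0.0428) and *CYR61* was not (0.0578), beside 4.73% of the 16811 genes.

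*AMOTL2* encodes a scaffold of the angiomotin family, which binds YAP1 and is itself used as a target gene, on chromosome 3 (134355345 to 134375417). Its value was 72.4 and 66.0 in edited and 45.9 and 28.6 in wild-type cells. Both edited values were above both wild-type values, by a ratio of means of 1.86. The log2 fold change of 0.91 (standard error 0.26, 95% interval 0.27 to 1.56) did not pass the threshold (adjusted p = 0.0839 from limma), nor did it under 14 alternatives (0.0712 to 0.316).

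*AJUBA* encodes a LIM protein that binds LATS kinases, on chromosome 14 (22971177 to 22982551). Its value was 63.8 and 55.1 in edited and 92.1 and 74.8 in wild-type cells. It was the only one of the 8 genes with both edited values below both wild-type values. Its log2 fold change was -0.48 (standard error 0.20, 95% interval -0.98 to 0.02, adjusted p = 0.169 from limma), and under the alternatives it stayed between -0.63 and -0.33.

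The groups did not overlap for 6 of the 8 genes, with 5 higher in edited cells and 1 (*AJUBA*) lower. This was so for 65.1% of all tested genes (38.3% higher and 26.9% lower), so a lack of overlap sets few genes apart in these libraries.

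**Figure D2:**
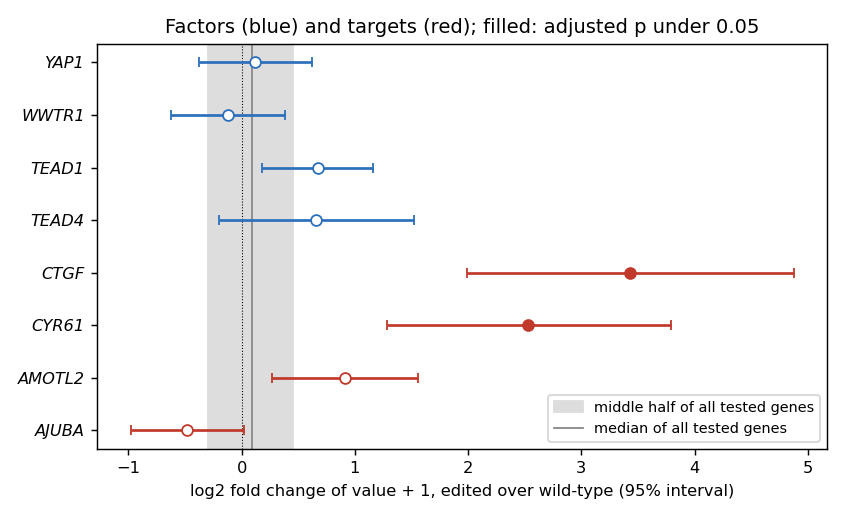
Log2 fold change of value + 1 (edited over wild-type, n = 2 libraries each) of the factors in blue and the targets in red, with 95% intervals from limma. Filled points passed an adjusted p of 0.05. The grey band runs from the lower to the upper quartile of all tested genes, and *CTGF* (3.43) and *CYR61* (2.53) lie far to its right.

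Factors and targets were then set side by side. The median log2 fold change was 0.39 over the 4 factors and 1.72 over the 4 targets, a difference of 1.33, beside 0.09 over all tested genes. Relative to the wild-type mean of each gene, the median of the targets was 1.75 and 1.70 in edited replicates 1 and 2, and that of the factors 0.27 and 0.44. In wild-type replicates 1 and 2 the targets stood at 0.53 and -0.53 and the factors at 0.12 and -0.12. The excess of targets over factors was 0.41 and -0.41 in wild-type replicates 1 and 2. The values of these 2 libraries mirror each other by construction, since their own mean is the reference. Both edited libraries were alike in this excess, at 1.48 and 1.25. That excess rests on *CTGF* and *CYR61*, since *AMOTL2* (0.91, standard error 0.26) was above *TEAD1* and *TEAD4* (0.67 and 0.66, standard errors 0.20 and 0.35) by less than its standard error and *AJUBA* was at -0.48. Without wild-type replicate 2 the medians were 0.10 for the factors and 1.16 for the targets. No p is given for a median over chosen genes.

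Of the 8 genes, the 2 called targets were also those in which the wild-type replicates differed most. On log2(value + 1), replicate 1 was higher than replicate 2 by 1.57 for *CYR61*, 1.46 for *CTGF*, 0.99 for *TEAD4* and 0.67 for *AMOTL2*. These differences lie at percentiles 99.5, 99.4, 98.1 and 93.6 of all tested genes, whose median was 0.11. For the remaining 4 genes the difference was from 0.05 to 0.34, at percentiles 41.6 to 76.3. The median of all tested genes was positive as well, so the sign of a difference sets few genes apart. All 8 genes were higher in wild-type replicate 1, so this library was the nearer to the edited level for the 5 genes that were higher in edited cells in both replicates. Between the edited replicates the differences of these 4 genes were smaller in size, the largest being that of *CTGF*, at -0.89 for replicate 1 less replicate 2 (percentile 4.20). Whether a condition of culture differed between the wild-type replicates was not tested.

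**Figure D3:**
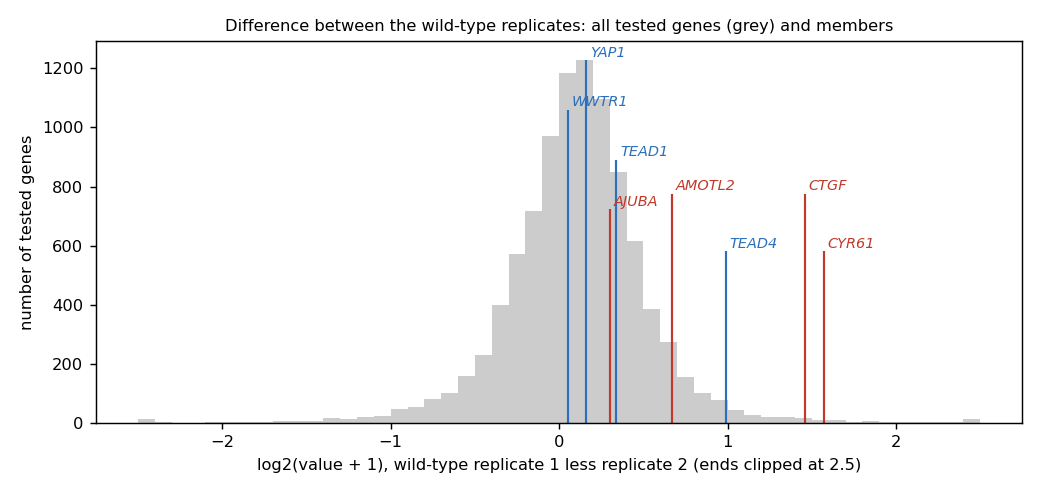
Histogram over the 9590 tested genes of log2(value + 1) in wild-type replicate 1 less replicate 2 (x axis) against the number of genes. Lines mark the factors in blue and the targets in red, at heights chosen for legibility. *CTGF*, *CYR61* and *TEAD4* lie at 0.99 to 1.57, at percentile 98.1 or above.

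The rest of the pathway was read from lists of 94 further genes, of which 60 were tested. Of these, 10 were called (16.7%, against 7.09% of all tested genes), 3 higher and 7 lower in edited cells. Without either wild-type replicate, limma called 0 of the 60 (18 with an unadjusted p under 0.05 without replicate 2 and 23 without replicate 1), where 4 and 47 of all tested genes were called.

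A list of 18 wider YAP/TAZ targets was taken from genes used as a cross-tissue signature of YAP/TAZ activity. It had 13 tested genes, of which 2 rose and 2 fell (30.8% called, against 7.09% of all tested genes). Its median log2 fold change was 1.11, but 0.25 without wild-type replicate 2, 1.48 without wild-type replicate 1 and 0.33 without edited replicate 2. *AXL*, a receptor tyrosine kinase, rose from 8.36 and 4.43 in wild-type to 21.3 and 29.6 in edited cells (1.87 on the log2 scale, adjusted p = 0.0399 from limma). *FJX1*, a secreted relative of the fly four-jointed kinase, rose from 20.4 and 14.0 to 50.8 and 39.9 (1.36, adjusted p = 0.0397). *CCDC80*, a secreted matrix protein, fell from 181.7 and 168.4 to 25.9 and 44.1 (-2.34, adjusted p = 0.0174), and *MYOF*, a membrane repair protein, fell from 182.7 and 180.6 to 91.1 and 101.7 (-0.91, adjusted p = 0.0492). None of these 4 genes was called by limma with the replicate block, where their adjusted p was 0.0807, 0.0618, 0.0568 and 0.0766 in that order. *AXL* had a wild-type mean under 10 and was tested only because it was high in edited cells. Without the filter *AXL* and *CCDC80* were called (adjusted p = 0.0484 and 0.0272), while *FJX1* and *MYOF* were not (0.0511 and 0.0506).

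Of the other genes of that list, *F3*, *CRIM1*, *NT5E*, *DOCK5* and *TGFB2* had log2 fold changes of 1.11 to 1.33 that were not called (adjusted p from 0.0723 to 0.344, limma). In each of these 5 genes wild-type replicate 2 was the lowest library, as for *CTGF* and *CYR61*. *TGFB2*, a TGF-beta ligand, had values of 10.4 and 44.6 in edited and 18.2 and 3.28 in wild-type cells, and its log2 fold change was 0.25 without wild-type replicate 2.

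Among Hippo kinases and their adaptors, 1 of 12 tested genes was called, 8.33% against 7.09% of all tested genes. *MAP4K5*, one of the kinases that act on LATS beside MST, fell from 36.0 and 45.6 to 19.1 and 21.6 (log2 fold change -0.96, adjusted p = 0.0478 from limma, 0.0743 with the replicate block and 0.0615 without the filter). *LATS1* and *LATS2*, the kinases of YAP1 and TAZ, had means under 10 and entered only the fit of all 16811 genes, with log2 fold changes of 0.04 and 0.12 (adjusted p = 0.926 and 0.793). *SAV1*, the adaptor of the MST kinases, was at -0.67 without being called (adjusted p = 0.0736).

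Among 18 tested genes of cell junctions, polarity and upstream inputs, 1 rose and 3 fell (22.2% called, against 7.09% of all tested genes). The gene that rose was *FJX1*, which is on both lists. *CRB3*, an apical polarity protein of epithelia, fell from 37.6 and 28.6 to 3.43 and 2.45 (log2 fold change -3.11, adjusted p = 0.00865 from limma). *DLG1*, a polarity scaffold, fell from 109.7 and 144.5 to 59.8 and 56.8 (-1.10, adjusted p = 0.0441). *CRB3* was also called with the replicate block (adjusted p = 0.0379), while *DLG1* was not (adjusted p = 0.0749). *CRB3* had an edited mean under 10 and was tested only through its wild-type level. Without the filter it was called (adjusted p = 0.0124) and *DLG1* was not (0.0503). *AMOTL1*, the relative of *AMOTL2*, was at -0.82 without being called (adjusted p = 0.0714), and *NF2*, which encodes merlin, an activator of the cascade, at 0.89 (adjusted p = 0.0906). *RASSF6*, under the filter, fell from 4.34 and 7.26 to 0.407 and 0.628 (-2.13, adjusted p = 0.0348 among all 16811 genes).

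**Figure D4:**
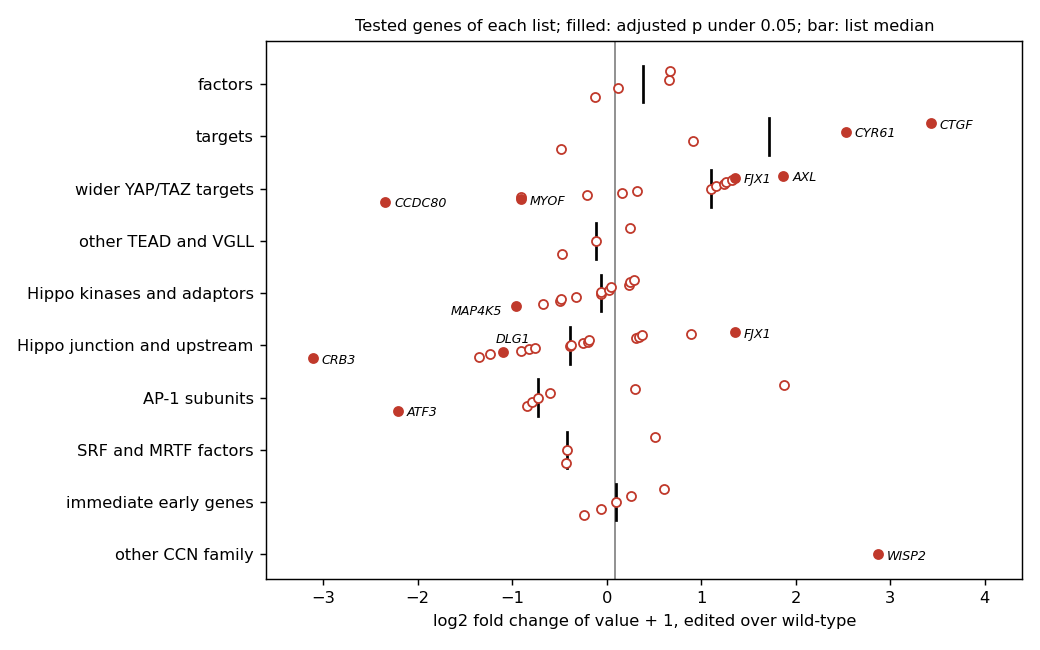
Log2 fold change of value + 1 (edited over wild-type) of each tested gene by list. Filled and named points passed an adjusted p of 0.05 (limma), 1 called gene of the junction list is not drawn, black bars are list medians and the grey line is the median of all tested genes (0.09). Wider targets lie on both sides of that line, from -2.34 (*CCDC80*) to 1.87 (*AXL*).

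Partners and relatives of the targets were also read. AP-1 often binds beside TEAD at distal sites, and of 7 tested AP-1 subunits 1 was called (14.3%, against 7.09% of all tested genes). *ATF3*, a stress-induced subunit, fell from 26.1 and 31.3 to 5.32 and 5.48 (log2 fold change -2.21, adjusted p = 0.0103 from limma, 0.0495 with the replicate block). Its edited mean was under 10, so it was tested only through its wild-type level, and without the filter it was also called (adjusted p = 0.0160). *FOSL1*, with values of 46.8 and 66.0 in edited and 26.1 and 7.76 in wild-type cells, was not called (1.88, adjusted p = 0.0836). It was 1 of only 2 tested AP-1 subunits with a positive log2 fold change, and 5 had a negative one. The median of the 7 was -0.73, but 0.07 without edited replicate 1. SRF and its cofactors also act on *CTGF* and *CYR61*. Here limma called 0 of 3, with 1 at an unadjusted p under 0.05 (*SRF* 0.51, adjusted p = 0.135; *MKL2* -0.43, adjusted p = 0.248). Of 5 tested immediate early genes 0 were called, with 0 at an unadjusted p under 0.05 (*EGR1* 0.61, adjusted p = 0.441; *MYC* 0.26, adjusted p = 0.537). *KLF4*, under the filter, fell from 10.2 and 12.0 to 2.13 and 2.91 (-1.79, adjusted p = 0.0313 among all 16811 genes).

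*WISP2*, the CCN family member that lacks the C-terminal domain of the others, was the 1 other CCN gene tested. Its value was 179.2 and 52.3 in edited and 10.7 and 14.4 in wild-type cells (2.87 on the log2 scale, adjusted p = 0.0449 from limma, 0.0797 with the replicate block and 0.0568 without the filter). The edited replicates differed in the opposite sense to *CTGF*, replicate 1 being the higher. The relatives of *ANKRD1* on the list, *ANKRD2* and *ANKRD23*, were both under the filter, with log2 fold changes of 0.52 and -0.10 (adjusted p = 0.751 and 0.781 among all 16811 genes).

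The position of the genes was set beside their changes. The 312 tested genes of chromosome 14 had a median log2 fold change of -0.46, against 0.09 over all tested genes. *AJUBA*, at -0.48, differed from that median by -0.02 and stood at percentile 46.5 of its chromosome but 17.0 of all genes. *MAP4K5*, which was called, and *SAV1* and *FRMD6*, which were not (adjusted p = 0.0736 and 0.0696 from limma), also lie on chromosome 14. They were at -0.96, -0.67 and -1.35, which is -0.51, -0.21 and -0.90 from the median of that chromosome. The other tested list genes there were *FOS* at -0.73 and *PTPN21* at -0.19, which are -0.28 and 0.27 from it. The medians of the chromosomes of the other 7 genes lay between 0.04 and 0.23, so the values of *CTGF* and *CYR61* were far from those of their chromosomes (0.23 for chromosome 6 and 0.06 for chromosome 1). DNA copy number was not measured, and its part in the value of *AJUBA* was not tested.

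**Figure D5:**
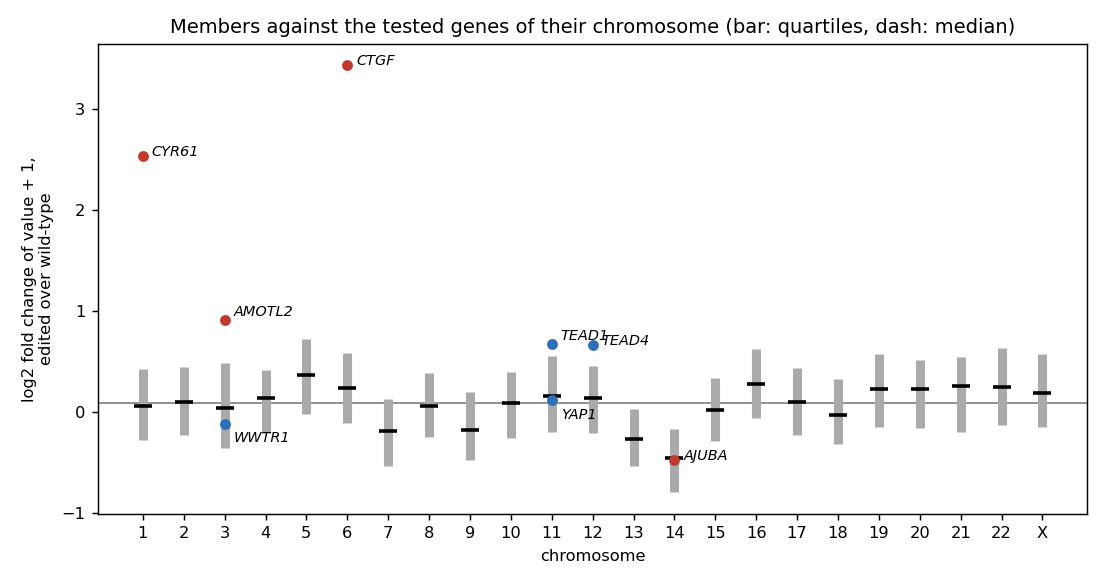
Log2 fold change of value + 1 (edited over wild-type) by chromosome, with grey bars for the quartiles and dashes for the median of its tested genes. Factors are blue and targets red. *AJUBA* (-0.48) sits at the median of chromosome 14 (-0.46), while *CTGF* and *CYR61* sit far above theirs.

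For each gene the tested genes with the most similar profile were found, by the Euclidean distance of log2(value + 1) less the wild-type mean over the 4 libraries. *RPS6KA2* (16.8 and 22.0 in edited, 3.02 and 0.468 in wild-type cells) was nearest to *CTGF* at a distance of 0.645, followed by *SLCO4A1* at 0.842. Nearest to *CYR61* were *RP11-488P3.1* at 0.412 and *DLC1* at 0.629. The pairs for *AMOTL2* were *UBASH3B* (0.0423) and *EXOSC5* (0.0529), and for *AJUBA* *BCAS4* (0.0115) and *OXA1L* (0.0398). *TEAD1* was nearest to *RRBP1* (0.0162) and *USP36* (0.0328), and *TEAD4* to *TATDN1* (0.0814) and *PFDN4* (0.0830). *YAP1* was nearest to *HNRNPDL* (0.0217) and *BRD1* (0.0286), and *WWTR1* to *ATXN7L3* (0.0499) and *NORAD* (0.0501). Profiles as steep as those of *CTGF* and *CYR61* had no neighbour as close as the flatter ones had.

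Markers of cell type were read beside these results. Of the 14 epithelial markers tested, 6 fell and 1 rose in edited cells, against 4.20% lower and 2.89% higher among all tested genes. All 15 epithelial markers on the list had values. Their summed value was 5704.4 and 8442.0 in edited and 14624.9 and 23740.8 in wild-type cells. *CDH1*, the epithelial cadherin, was at 3.89 and 1.54 against 150.5 and 122.9. *EPCAM* (log2 fold change -2.31), *KRT17* (-2.37), *TP63* (-2.65), *GRHL2* (-4.64) and *ESRP1* (-5.89) fell as well, while *KRT8*, a simple epithelial keratin, was the 1 marker that rose (log2 fold change 1.01, adjusted p = 0.0449 from limma). *CDH1*, *EPCAM*, *GRHL2* and *ESRP1* had edited means under 10 and were tested only through their wild-type level. Without the filter limma lost the calls of *EPCAM* (adjusted p = 0.0522) and *KRT17* (0.0628). With the replicate block it lost those of *KRT8* (0.0718), *KRT17* (0.0707) and *TP63* (0.0644). *KRT19* was the 1 epithelial marker listed at 0 in a library, edited replicate 2. Of 9 fibroblast markers 3 were analysed, with sums of 30.5 and 224.9 in edited and 78.0 and 52.3 in wild-type cells. *COL1A1* fell (-2.06, adjusted p = 0.0420), and *DCN* had values of 15.1 and 105.0 against 7.42 and 1.09 without being called (3.30, adjusted p = 0.0974). Of the endothelial, leukocyte and muscle markers, 0 of 6, 2 of 5 and 1 of 6 were analysed. The leukocyte sum was 9.28 and 10.9 in edited and 31.4 and 51.2 in wild-type cells, where *ITGAM* fell (-3.87, adjusted p = 0.0264), and the muscle marker *TNNT2* was at 0.0957 and 0.171 against 3.60 and 12.3. *COL1A1* and *ITGAM* also had edited means under 10. Without the filter limma called both (adjusted p = 0.0490 and 0.0347), and with the replicate block *ITGAM* (0.0379) but not *COL1A1* (0.0579). The part of these marker differences in the values of *CTGF* and *CYR61* was not tested.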

How the data were processed

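RNA-seq of 2 edited and 2 wild-type MCF12A libraries was analysed. The sample titles gave the group and replicate number of each library. The authors deposited 1 normalized expression signal per gene symbol and library for 16811 genes. The submitters' processing notes name HISAT2, Salmon and hg38, without roles or versions; annotation, filter and normalization are not given in the sources used here. The analysis plan foresaw normalized values, and read numbers were estimated only roughly. Exact ratios between libraries recurred (in up to 147 genes), and 132 of 975 single-transcript genes were whole multiples of 1 step (tolerance 0.002), whose Spearman correlation with transcript length was -0.94 across these genes, so the values are scaled for length. On 1 kb, 1 read was worth 0.105, 0.0935, 0.113 and 0.105 in edited replicates 1 and 2 and then in wild-type replicates 1 and 2. The inverse of this step, relative to wild-type replicate 2, was 1.00, 1.12, 0.93 and 1.00. It reflects the scaling between libraries and is not a read total, since the summed values also differed (1655436.5, 1652352.3, 1604212.4 and 1444644.0 in that order). For most genes whole reads could not be recovered, and no count test was used. Read estimates use the canonical GENCODE transcript and cover counting error only. limma 3.58.1 in R 4.3.3 (lmFit, eBayes with trend) was run on log2(value + 1) with no block for the replicate number, p-values were adjusted over 9590 genes (Benjamini-Hochberg), and was tested on simulated data. The paper's RNA-seq threshold of 0.001 was an alternative. At that threshold the paper reports many more genes, from an RNA-seq test that it does not name. The number called here at 0.001 by limma is therefore not the paper's result. Chromosomes came from RefSeq on GRCh38.p14 (93.4% of tested genes matched). The genes examined, the lists and the tests were chosen with earlier results of these data known. Named were all members, every list gene past the threshold or, where a list had none, its 2 largest changes, and the 2 nearest profiles of each member, except 1 called junction gene that is counted but not reported here; *LATS1*, *LATS2*, *SAV1*, *FRMD6*, *AMOTL1*, *NF2*, *F3*, *CRIM1*, *NT5E*, *DOCK5*, *TGFB2*, *FOSL1*, *DCN*, *FOS*, *PTPN21* and the genes under the filter were named after their values were seen.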

Additional observations from a re-analysis of the deposited data

How the results depend on the processing

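The settings were those planned, except the crossed pairing, which was chosen after seeing the data. Over 108 values of single genes under alternatives, 94 kept direction and call, 11 lost the call, 0 gained one and 3 turned direction: *YAP1* (0.12) was -0.01 with cyclic loess and -0.05 without edited replicate 2, and *WWTR1* (-0.12) was 0.08 without edited replicate 1. With a library left out, they ranged from -0.05 to 0.29 and from -0.32 to 0.08. With a pseudocount of 0.1, a mean of at least 50 (4 tested), the replicate block and an adjusted p of 0.001, limma gave 4, 1, 5 and 4 of the 8 genes an unadjusted p under 0.05. Over all tested genes these counts were 3093, 1426 (of 4192), 2944 and 3095. Of the 8 genes 2 were called in the main setting, but 0 under each of these 4. There was 1 without the filter and with quantile or cyclic loess normalization, and 0 to 2 with a library left out. Of all tested genes 680 were called, 419 with a mean of at least 50, 133 with the replicate block, 1 at 0.001 and 4 to 1431 with a library left out. Of the other pathway genes 10 were called, 5 with a mean of at least 50, 2 with the block, 16 with the crossed pairing, 0 at 0.001 (25 with an unadjusted p under 0.05) and 0 to 15 with a library left out. With a mean of at least 50, which keeps *YAP1*, *WWTR1*, *AMOTL2* and *AJUBA*, the medians were -4.71e-04 for factors and 0.22 for targets, a difference of 0.22. With a library left out they were 0.10 to 0.52, 1.16 to 2.28 and 1.06 to 1.76. Equal library totals moved the median of all genes by -0.12, and *CTGF* (3.36) and *CYR61* (2.43) were still called. The differences between replicates correlated at -0.14 across genes between the groups. With a single such difference per group, this cannot decide whether replicate numbers pair the libraries. The crossed pairing called 1002 genes, and as it was chosen after seeing the data, no conclusion is drawn from that number. Where 1 library was left out, the lone library of its group was assumed to vary like the others.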
